A study of Homo sapiens with 6 samples.

Results

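Messenger RNA of 10 genes of the unfolded protein response was examined in F36P cells, a human leukaemia cell line that needs a cytokine to grow and expresses erythroid genes. The genes were chosen by symbol from the deposited table, as members of the IRE1-XBP1 and ATF6 branches of that response: ERN1, XBP1, HERPUD1, DNAJB9, HSPA5, HSP90B1, HYOU1, SDF2L1, PDIA4 and CALR. All 10 were found among the 16315 genes of the table, and all 10 were among the 13841 that were tested. Of the 6 libraries, 3 were made from cells that received a guide targeting HDAC7 (sgHDAC7, labelled HDAC7 knockout), which encodes a histone deacetylase of class IIa, and 3 from cells that received the control guide sgNT (labelled WT). Both groups carried a puromycin-resistance plasmid and were selected in 1 µg/ml puromycin for 4 days, and poly-A RNA from equal numbers of cells per sample was sequenced. The labels name neither clones nor the way in which the nuclease was supplied, and the 3 libraries of each group are named biological replicates, with no word on separate cultures. The p-values therefore measure the spread between these libraries, which may be technical.

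The unfolded protein response adjusts the folding capacity of the endoplasmic reticulum (ER) to its load. IRE1, the product of ERN1, is a membrane kinase and endonuclease that cuts XBP1 messenger RNA so that an active transcription factor can be made from it, while ATF6 is a membrane-bound factor that is freed by proteolysis. XBP1 and ATF6 raise chaperones, oxidoreductases and the machinery that passes misfolded proteins to the proteasome, and a separate sensor, PERK, acts through the factor ATF4.

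Library totals ran from 10039693 to 12521195 counts, and values below are in CPM, counts scaled to a common library size with TMM normalization, as mean ± SD of 3 libraries unless the single libraries are given. HDAC7 itself, the targeted gene, was at 226 ± 28.0 CPM under its own guide and at 457 ± 6.51 CPM under sgNT (n = 3 each). Its log2 fold change was -1.02 ± 0.09 (edgeR adjusted p = 0.00139), where ± is the standard error, here and for every log2 fold change below. All 10 erythroid marker genes checked were present in every library and summed to 17300 to 24505 CPM under the HDAC7 guide and 11918 to 18150 CPM under sgNT. None of the 10 passed with group alone, but 6 were higher and none lower with a term for replicate 1, and their part in the results below was not tested. Across the table, 396 of 13841 genes (2.86%) passed edgeR's quasi-likelihood test at an adjusted p under 0.05, 161 higher (1.16%) and 235 lower (1.70%) in sgHDAC7. In both groups the library numbered 1 was unlike the other 2, more so in sgNT, where the chi-square divided by its degrees of freedom was 14.0 and 15.4 against replicates 2 and 3 and 3.50 between those. Results are therefore also given within replicate 1 (1 library against 1), within replicates 2 and 3, and in a fit with a term for replicate 1. In that fit 12.6% of genes were called (5.78% higher and 6.81% lower). Its term assumes that replicate 1 shifts equally in both groups. The labels do not name libraries of the same number as a batch, and for several of the 10 genes the shifts differed between the groups.

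Of the 10 genes, 2 fell and 1 rose in sgHDAC7 against sgNT in the fit with group alone. XBP1 and HERPUD1 were lower, by 1.61-fold and 1.84-fold, and CALR was 1.19-fold higher. The other 7 did not pass, and their log2 fold changes ran from -0.29 to 0.35. The median over the 10 was 0.01, against -0.0016 for all genes tested. For the same 3 genes the groups did not overlap, as was the case for 25.1% of all genes tested (13.0% higher and 12.2% lower). Since the cells were measured in bulk, fewer cells with a transcript and less of it per cell cannot be told apart.

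**Figure D1:**
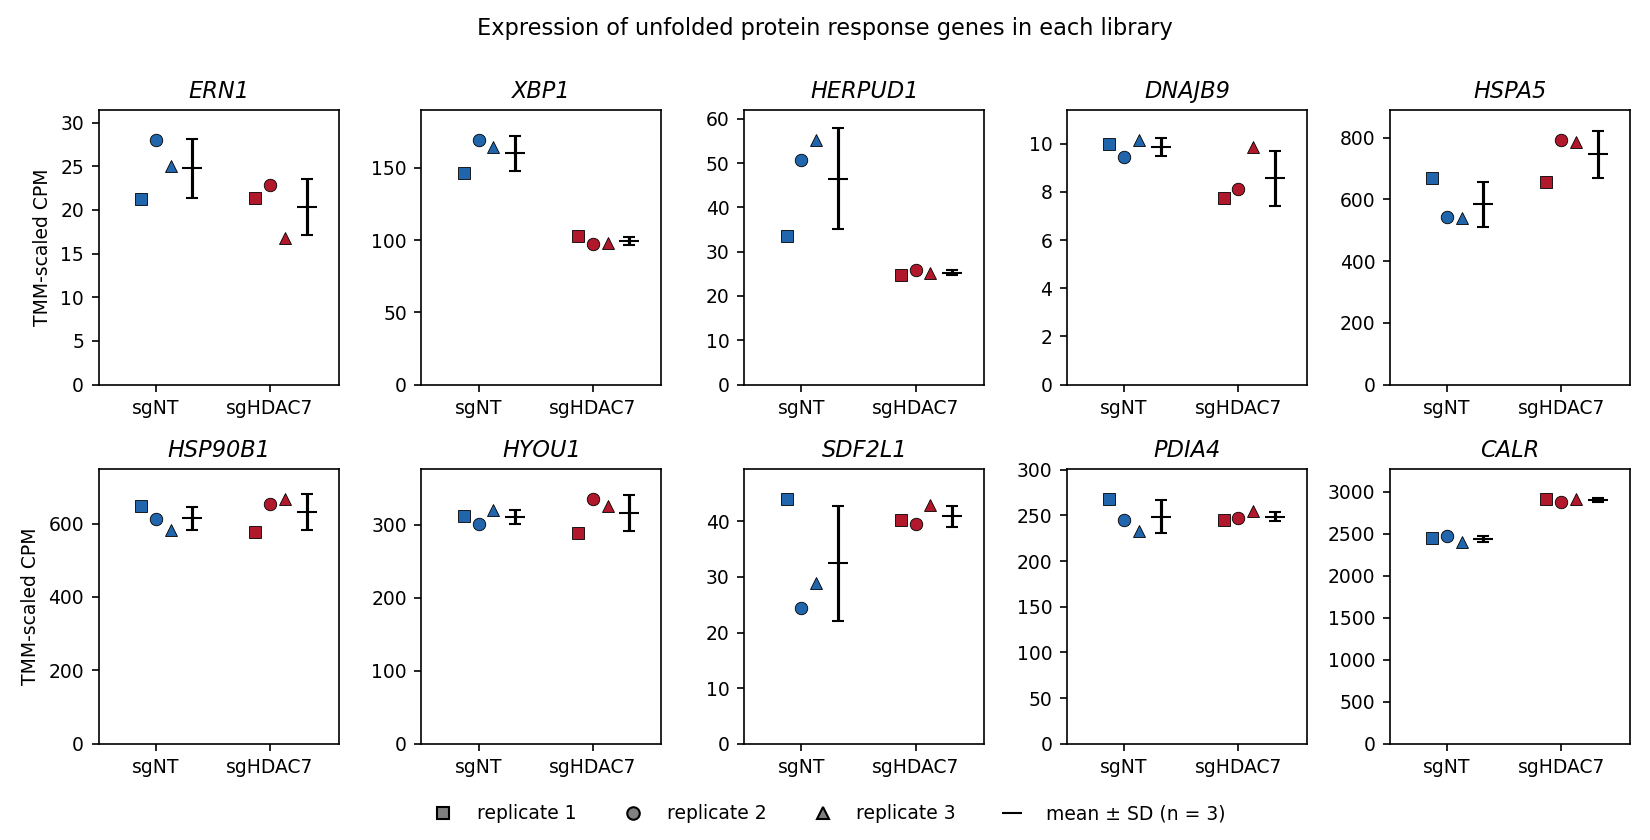
TMM-scaled CPM (vertical axis, from 0) of each of the 10 genes in the 3 sgNT and the 3 sgHDAC7 libraries, with the mean and SD of each group beside the points. XBP1 and HERPUD1 lay lower and CALR higher in every sgHDAC7 library than in any sgNT library, while the points of the other 7 genes overlapped.

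ERN1 (ENSG00000178607, chr17:64039142-64130819, minus strand, GRCh38), the IRE1 sensor, had 21.3, 22.9 and 16.8 CPM with sgHDAC7 replicates 1 to 3 and 21.2, 28.0 and 24.99 CPM with sgNT. The groups overlapped, since sgNT replicate 1 lay below sgHDAC7 replicates 1 and 2. Its log2 fold change was -0.29 ± 0.15 (SE; 95% interval -0.63 to 0.05, edgeR adjusted p = 0.338). Within replicate 1 the log2 ratio was 0.0061, and within replicates 2 and 3 it was -0.43. On replicates 2 and 3 alone ERN1 passed (edgeR adjusted p = 0.0233).

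XBP1 (ENSG00000100219, chr22:28794555-28800597, minus strand), the transcription factor downstream of IRE1, had 103, 97.4 and 97.9 CPM with sgHDAC7 and 146, 169 and 164 CPM with sgNT. The sgHDAC7 libraries lay close together, and the lowest sgNT library, replicate 1, was still above the highest of them. On the log2 scale the difference was -0.69 ± 0.07 (95% interval -0.85 to -0.52, edgeR adjusted p = 0.00275). Permuting the library labels exactly (two-sided) gave p = 0.1, the smallest value that 3 against 3 allows. XBP1 fell by 0.51 on the log2 scale within replicate 1 and by 0.77 within replicates 2 and 3, and it passed whichever library was left out. It was the only one of the 10 genes to do so.

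The counts are summed per gene, so they do not separate the XBP1 messenger RNA before and after the IRE1 cut. The stretch that IRE1 removes is 26 bases long and lies within the coding part of exon 4 (chr22:28796124-28796149). It is shown here, with 15 flanking bases on each side, because it is the part of the transcript that decides which protein is made. The capitals mark the 26 removed bases of the GENCODE transcript, read on the minus strand.
XBP1 (chr22:28796109-28796164): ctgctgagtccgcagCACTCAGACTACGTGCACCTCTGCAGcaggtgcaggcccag
With the stretch the reading frame runs for 261 codons, and without it for 376. GENCODE places the removed 26 bases at either of 2 positions that differ by 2 bases and leave the same transcript, and neither form was measured here on its own.

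HERPUD1 (ENSG00000051108, chr16:56932048-56944863, plus strand) encodes a membrane protein of ER-associated degradation, the route by which misfolded proteins leave the ER. It had 24.7, 25.9 and 25.2 CPM with sgHDAC7 and 33.6, 50.7 and 55.3 CPM with sgNT. The sgHDAC7 libraries were nearly level, and sgNT replicate 1 lay between them and the other sgNT libraries. sgHDAC7 minus sgNT came to a log2 value of -0.88 ± 0.16 (95% interval -1.25 to -0.51, edgeR adjusted p = 0.0287; exact permutation p = 0.1). HERPUD1 fell by 0.44 within replicate 1 and by 1.04 within replicates 2 and 3, a difference that was not tested. When single libraries were left out, it kept its call only without sgNT replicate 1 (log2 fold change -1.07). Without any other single library the fold change was -0.74 to -0.91, and the edgeR adjusted p ran from 0.067 to 0.151.

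DNAJB9 (ENSG00000128590, chr7:108569568-108574850, plus strand), an ER co-chaperone of the J-domain family that is also known to hold IRE1 inactive, was the gene with the fewest reads of the 10, at 94 to 122 counts per library. It had 7.73, 8.11 and 9.87 CPM with sgHDAC7 and 9.98, 9.44 and 10.2 CPM with sgNT. Only sgHDAC7 replicate 3 reached the sgNT range. The log2 fold change was -0.20 ± 0.16 (95% interval -0.55 to 0.15, edgeR adjusted p = 0.524), and DNAJB9 was not called in any of the 16 alternative fits. THAP5 and PNPLA8 overlap it on the opposite strand, and without stated use of strand their reads cannot be told apart from its own.

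HSPA5 (ENSG00000044574, chr9:125234853-125241330, minus strand) encodes BiP, the central HSP70 chaperone of the ER, which binds the sensors when folding load is low. It had 658, 793 and 785 CPM with sgHDAC7 and 669, 543 and 539.7 CPM with sgNT. Replicates 2 and 3 of sgHDAC7 lay above all sgNT libraries, whereas the replicate 1 libraries of both groups were level with each other. Its log2 fold change was 0.35 ± 0.10 (95% interval 0.12 to 0.58) and did not pass over all genes tested (edgeR adjusted p = 0.101). HSPA5 differed by -0.025 within replicate 1 and by 0.54 within replicates 2 and 3. The HSPA5 test passed once replicate 1 had its own term (0.35 on the log2 scale, edgeR adjusted p = 0.0239). That term assumes an equal shift of replicate 1 in both groups, whereas the shift was 0.31 in sgNT and -0.26 in sgHDAC7. HSPA5 also passed with DESeq2 (adjusted p = 0.0298) and without sgNT replicate 1 (log2 0.46, edgeR adjusted p = 0.00427).

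SDF2L1 (ENSG00000128228, chr22:21642261-21644298, plus strand), a small partner of the BiP and ERdj3 chaperone complex, also had its replicate 1 above the other sgNT libraries. Its values were 40.2, 39.5 and 43.0 CPM with sgHDAC7 and 44.1, 24.4 and 28.9 CPM with sgNT. The highest of the 6 values was that of sgNT replicate 1, and the other sgNT libraries held the lowest. On the log2 scale the difference was 0.34 ± 0.18 (95% interval -0.08 to 0.75, edgeR adjusted p = 0.357). It was -0.13 within replicate 1 and 0.63 within replicates 2 and 3, and SDF2L1 passed on replicates 2 and 3 alone (edgeR adjusted p = 6.92e-05) and without sgNT replicate 1 (0.00363).

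CALR (ENSG00000179218, chr19:12938578-12944489, plus strand) encodes calreticulin, a calcium-binding lectin chaperone that folds glycoproteins. It had 2906, 2872 and 2914 CPM with sgHDAC7 and 2441, 2468 and 2403 CPM with sgNT. The 3 libraries of each group lay within a few percent of each other, and the groups were apart. sgHDAC7 minus sgNT came to a log2 value of 0.25 ± 0.06 (95% interval 0.13 to 0.37, edgeR adjusted p = 0.0476; exact permutation p = 0.1). Unlike for HSPA5, the ratio was the same in replicate 1 (0.25) and in replicates 2 and 3 (0.25). The call lay near the threshold: it was lost with upper quartile scaling (edgeR adjusted p = 0.0502), with library totals (0.0584) and with limma (0.0712), and among the single-library omissions it was kept only without sgNT replicate 1 (0.0121; 0.115 to 0.196 otherwise). The log2 fold change stayed between 0.23 and 0.26 in all 16 alternatives.

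The remaining 3 chaperone genes had log2 fold changes near 0. HSP90B1 (ENSG00000166598, chr12:103930107-103953645, plus strand), which encodes the ER paralogue of HSP90 known as GRP94, had 576, 653 and 668 CPM with sgHDAC7 and 648, 612 and 583 CPM with sgNT. HYOU1 (ENSG00000149428, chr11:119044189-119057202, minus strand), a large HSP70-related exchange factor of BiP, had 288, 335 and 325 CPM against 311, 301 and 319.9 CPM. PDIA4 (ENSG00000155660, chr7:149003062-149028641, minus strand), a protein disulfide isomerase, had 245, 247 and 254 CPM against 268, 245 and 233 CPM. In each of the 3 the groups overlapped. The 95% intervals of the log2 fold changes were -0.13 to 0.21 for HSP90B1, -0.14 to 0.19 for HYOU1 and -0.15 to 0.15 for PDIA4, with edgeR adjusted p = 0.813, 0.884 and 0.998. Within replicate 1 the log2 ratios of the 3 genes were -0.17, -0.11 and -0.13, and within replicates 2 and 3 they were 0.14, 0.090 and 0.069. HSP90B1 shares its locus with C12orf73 on the opposite strand, and its processed pseudogene HSP90B2P is listed with 4 to 14 counts per library.

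**Figure D2:**
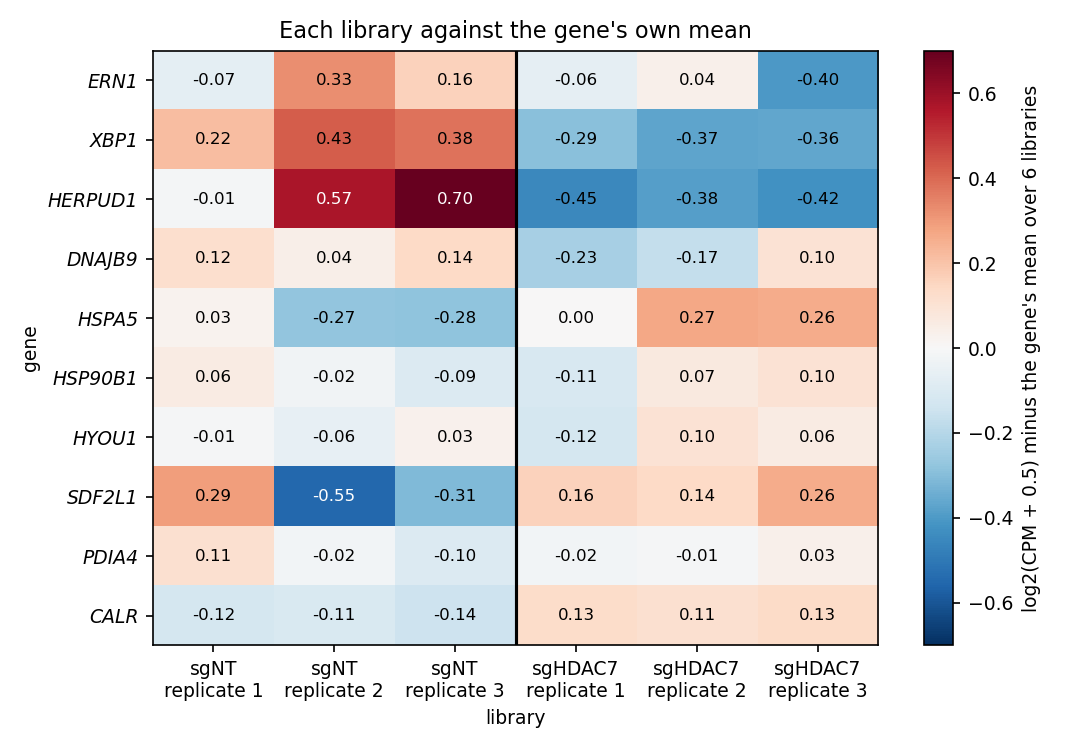
Log2(CPM + 0.5) of each gene (rows) in each library (columns), minus that gene's mean over the 6 libraries; red is above and blue below that mean. HERPUD1 stood at 0.57 and 0.70 in sgNT replicates 2 and 3 and at -0.01 in sgNT replicate 1, and SDF2L1 at -0.55, -0.31 and 0.29 in the same libraries.

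The sgNT libraries differed among themselves more than the sgHDAC7 libraries did for several of these genes. Within sgNT, replicate 1 was below replicates 2 and 3 by a log2 difference of -0.65 for HERPUD1, -0.31 for ERN1 and -0.19 for XBP1, and above them by 0.72 for SDF2L1 and 0.31 for HSPA5. Within sgHDAC7 the same differences were -0.046, 0.12 and 0.074, and -0.036 and -0.26. The summed level of the 15 genes of the PERK-ATF4 list was likewise lower in sgNT replicate 1, at 989.5 CPM against 2281 and 2341 CPM in replicates 2 and 3, and it was 918 to 964 CPM under the HDAC7 guide. DDIT4 alone gave 104, 802 and 812 CPM of the sgNT sums. All 14 tested genes of the list were below the mean of replicates 2 and 3 in sgNT replicate 1, with EIF2AK3, which encodes PERK, nearly level (log2 difference -0.06). The summed level of 12 heat shock genes, cytosolic but for the mitochondrial HSPD1 and HSPE1, was higher in sgNT replicate 1, at 9421 CPM against 8018 and 7860 CPM. Under the HDAC7 guide it was 9797, 11850 and 11817 CPM. Of these 12 genes, 11 were above the mean of the other sgNT libraries in replicate 1, and HSPB1 was below it (-0.10). The part of either in the differences between the guides was not tested.

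**Figure D3:**
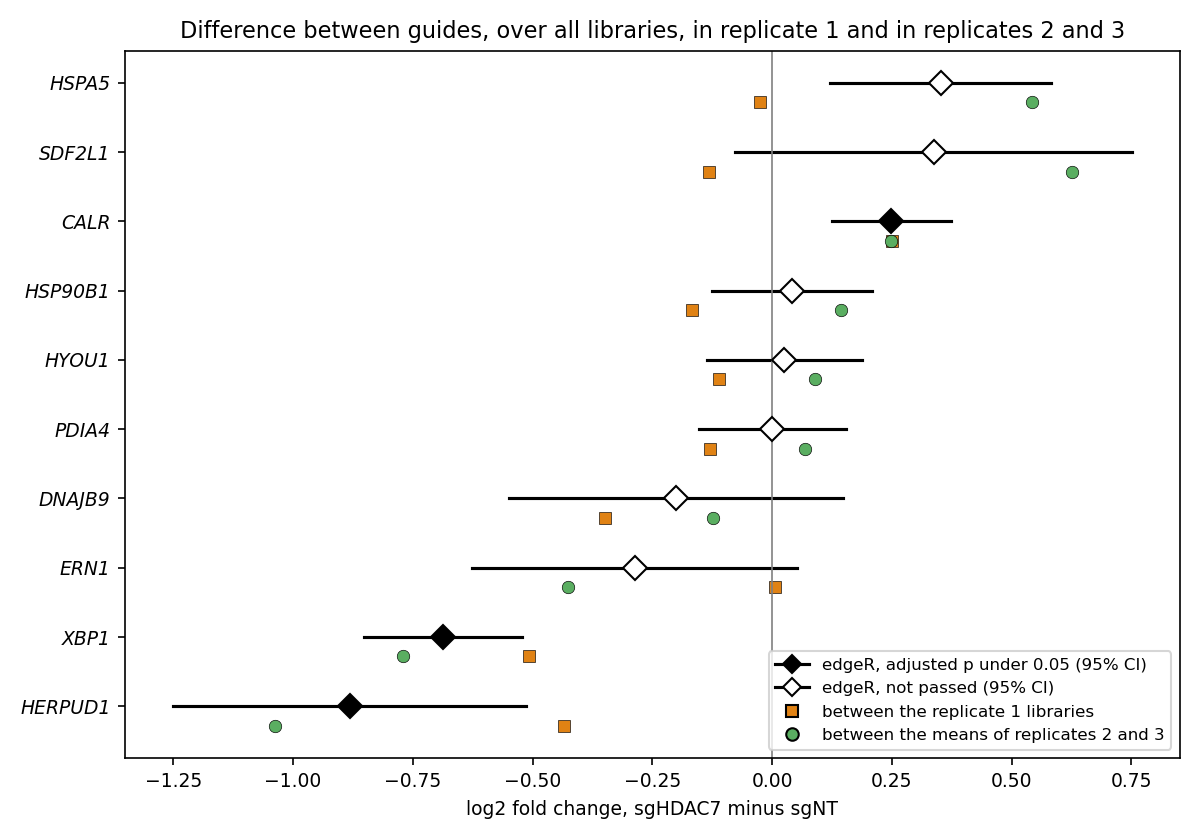
Log2 fold change (horizontal axis, sgHDAC7 minus sgNT) of the 10 genes from the edgeR fit on all 6 libraries with its 95% interval (diamonds, filled where the adjusted p was under 0.05), and the log2 ratios within replicate 1 (squares) and between the means of replicates 2 and 3 (circles). For CALR the square and the circle coincide at 0.25, whereas for HSPA5 they stand at -0.025 and 0.54.

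With the replicate 1 term, 4 of the 10 genes were called, against 12.6% of all genes: XBP1 and HERPUD1 lower (log2 -0.69 and -0.86, edgeR adjusted p = 5.7e-05 and 0.000693), and CALR and HSPA5 higher (0.25 and 0.35, edgeR adjusted p = 0.00572 and 0.0239). On replicates 2 and 3 alone, where 20.6% of all genes were called, ERN1 was lower and SDF2L1 higher in addition. That fit rests on 2 against 2 libraries that lay close together.

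Per kilobase of annotated exon, a rough scale for comparing different genes, CALR was the most abundant of the 10 in both groups, at 898 ± 12.0 CPM per kb in sgNT and 1068 ± 8.10 CPM per kb in sgHDAC7. HSPA5 (149 ± 18.9 in sgNT and 191 ± 19.5 in sgHDAC7), HSP90B1 (131 ± 6.85 and 135 ± 10.4) and PDIA4 (75.9 ± 5.52 and 75.9 ± 1.49) followed in that order in both groups, all in CPM per kb, although the lowest HSPA5 library of sgNT (138.1) barely exceeded the highest HSP90B1 library (137.9). XBP1 came next in sgNT, at 52.9 ± 3.98 CPM per kb, above HYOU1 (40.4 ± 1.23) and SDF2L1 (29.5 ± 9.40), whose ranges overlapped in both groups. In sgHDAC7 it stood below both, at 32.8 ± 0.99 CPM per kb against 41.1 ± 3.25 for HYOU1 and 37.2 ± 1.66 for SDF2L1. HERPUD1 (9.03 ± 2.22 in sgNT and 4.90 ± 0.12 in sgHDAC7), DNAJB9 (3.48 ± 0.13 and 3.02 ± 0.40) and ERN1 (2.28 ± 0.31 and 1.87 ± 0.29) were lowest. The annotation that was counted is not given in the sources used here, so these levels rest on the exon lengths of GENCODE 29. Those lengths join the exons of all transcripts of a gene, for example 3908 bases over 1 transcript for HSPA5 and 7694 over 22 for HYOU1. The levels and their order therefore depend on which transcripts are annotated, and the transcripts present in these cells were not separated.

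The 10 genes together took 4870 to 5139 CPM with sgHDAC7 and 4363 to 4593 CPM with sgNT, without overlap (exact permutation p = 0.1). Without CALR, the remaining 9 summed to 1964 to 2226 and 1959 to 2152 CPM, and the groups overlapped (exact permutation p = 0.3).

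The promoters were searched for the elements through which ATF6 and XBP1 are known to act. The stretches that hold them are shown for 6 genes, so that those of genes that fell, rose or did not pass can be set side by side. The ER stress response element ERSE was searched as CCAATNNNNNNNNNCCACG, ERSE-II as ATTGGNCCACG, the XBP1 element UPRE as TGACGTGG and the ATF4 element CARE as TGATGNAA, on both strands of the 250 bases before each RefSeq start (GRCh38.p14). All 10 genes matched an entry, 12 entries in all. ERSE was found before the RefSeq start of XBP1, HSPA5, HSP90B1 and CALR, and in 0.074% of the 35116 promoters of the table. ERSE-II was found before HERPUD1, HYOU1 and SDF2L1, and in 0.0513% of promoters. UPRE occurred before HYOU1 (0.612% of promoters), where it overlaps an ERSE-II, and CARE before HERPUD1 (3.14%). The HSP90B1 matches lie inside the gene by GENCODE 29, whose gene start is upstream of the RefSeq start, and in annotated exon sequence. Capitals mark the matches in the following stretches, each on the strand of its gene.
XBP1 (chr22:28800598-28800646, minus strand): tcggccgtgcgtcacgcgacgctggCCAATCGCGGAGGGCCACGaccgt
HSPA5 (chr9:125241366-125241434, minus strand): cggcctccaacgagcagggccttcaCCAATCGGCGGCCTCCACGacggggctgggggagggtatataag
CALR (chr19:12938359-12938427, plus strand): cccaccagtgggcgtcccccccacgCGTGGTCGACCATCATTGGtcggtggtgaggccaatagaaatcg
HERPUD1 (chr16:56931941-56932047, plus strand): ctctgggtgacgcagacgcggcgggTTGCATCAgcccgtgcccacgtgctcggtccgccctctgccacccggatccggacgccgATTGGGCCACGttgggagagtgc
SDF2L1 (chr22:21642089-21642149, plus strand): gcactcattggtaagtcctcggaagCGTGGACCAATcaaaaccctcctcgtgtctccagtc
HYOU1 (chr11:119057249-119057418, minus strand): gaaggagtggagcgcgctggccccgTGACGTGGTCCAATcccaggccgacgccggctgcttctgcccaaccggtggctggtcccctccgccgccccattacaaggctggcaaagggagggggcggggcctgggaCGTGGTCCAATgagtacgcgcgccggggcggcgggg
XBP1, which fell, CALR, which rose, and HSPA5, which did not pass, each hold a match to the same ERSE letters, in CALR on the opposite strand. HERPUD1, which fell, and HYOU1 and SDF2L1, which did not pass, each hold ERSE-II. The HERPUD1 stretch is the single one of the 10 with CARE, on the opposite strand at 176 to 169 bases before the start. In the other 3 genes (ERN1, DNAJB9 and PDIA4) none of the 4 motifs was found in this window. The 10 genes were chosen as members of the IRE1-XBP1 and ATF6 branches, so finding these elements before them is no test of enrichment. A match describes the letters alone, and binding was not measured.

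Beyond these 10, the other genes of the response and of the secretory pathway were taken from lists by function. Of 10 further sensors and transcription factors of the response, none passed (edgeR; median log2 fold change -0.08). CREBZF had 98.7 ± 2.27 CPM with sgHDAC7 and 119 ± 6.09 CPM with sgNT (edgeR adjusted p = 0.0628), and MBTPS2, a protease that frees ATF6, had 29.1 ± 1.92 and 34.6 ± 0.92 CPM (0.183). With the replicate 1 term 1 of the 10 was lower, with DESeq2 none was called, and 3 had an unadjusted edgeR p under 0.05. Over all genes tested, 1.70% were lower with group alone and 6.81% with that term. The share of all genes with an unadjusted p under 0.05 is not given, so such counts here and below are descriptions only.

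Of 17 further ER chaperones and co-chaperones, 1 was lower and none higher (median 0.03), against 1.70% lower and 1.16% higher over all genes tested. HSPA13, an HSP70 protein of the ER, had 62.3, 60.3 and 63.1 CPM with sgHDAC7 and 71.8, 100.2 and 107 CPM with sgNT (log2 -0.59 ± 0.13, edgeR adjusted p = 0.0477). As for HERPUD1, sgNT replicate 1 lay nearest to the sgHDAC7 libraries, and the call was kept only without sgNT replicate 1. It was also lost with limma. With the replicate 1 term 1 was higher and 2 lower, against 5.78% and 6.81% of all genes tested. None of 20 further disulfide isomerases and oxidases passed with edgeR or DESeq2 (median -0.02; 4 with an unadjusted edgeR p under 0.05), and with the replicate 1 term 1 was higher and 2 lower. ERO1A, the oxidase that recharges these enzymes, had 44.9 ± 4.10 and 57.2 ± 3.65 CPM (edgeR adjusted p = 0.0799), and ERP29 had 234 ± 9.30 and 193 ± 23.3 CPM (0.127).

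In ER-associated degradation, 27 further genes held 1 rise and 1 fall (median -0.04; 3 higher and 2 lower with the replicate 1 term). Over all genes tested, 1.16% rose and 1.70% fell with group alone, and 5.78% and 6.81% with that term. EDEM1, a lectin that directs misfolded glycoproteins to degradation, had 56.4, 52.9 and 48.1 CPM with sgHDAC7 and 66.3, 75.3 and 74.6 CPM with sgNT (log2 -0.46 ± 0.09, edgeR adjusted p = 0.0317). UBE2G2, a ubiquitin-conjugating enzyme of the same pathway, had 174, 185 and 185 CPM with sgHDAC7 and 141, 131 and 129.8 CPM with sgNT (log2 0.44 ± 0.06, edgeR adjusted p = 0.0132). Both sets of libraries were apart, and both calls were kept only without replicate 1 of either group when single libraries were left out.

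None of the 24 genes of translocation into the ER (median 0.01) and none of the 20 of N-glycosylation and glycoprotein folding (median 0.05) passed with edgeR. Of them 2 and 3 had an unadjusted edgeR p under 0.05, a count for which the share of all genes is not given here. SRP9, of the signal recognition particle, had 176 ± 11.03 and 203 ± 9.68 CPM (edgeR adjusted p = 0.149), and SEC63 had 93.5 ± 4.10 and 106 ± 8.62 CPM (0.255). MCFD2 had 142 ± 4.29 and 171 ± 5.72 CPM (0.0523) and its partner in cargo export, LMAN1, 218 ± 9.98 and 261 ± 4.95 CPM (0.0574). With the replicate 1 term 1 translocation gene was lower, and 1 glycosylation gene was higher and 2 lower. With DESeq2, and with library totals, 2 glycosylation genes were lower and no translocation gene was called. Of all 13841 genes, 421 and 268 were lower in these fits. Among 16 tested genes of the COPII coat and ER exit, 1 was lower (median -0.01; 1 higher and 1 lower with the replicate 1 term). Over all genes tested, 1.70% were lower with group alone, and 5.78% were higher and 6.81% lower with that term. SEC23A, a subunit of the inner COPII coat, had 38.6, 32.5 and 33.8 CPM with sgHDAC7 and 54.7, 49.7 and 47.9 CPM with sgNT (log2 -0.54 ± 0.10, edgeR adjusted p = 0.0266), and its call was kept only without replicate 1 of either group.

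The PERK-ATF4 list stood apart from the lists above by the size of its fold changes: 8 of 14 tested genes were lower and none higher. Over all genes tested 1.70% were lower, and the median was -1.28 for the list against -0.0016 for all genes. With the replicate 1 term 12 were lower and 1 higher, against 6.81% and 5.78% of all genes tested. Activity of PERK and of ATF4 was not measured, so the part of PERK in this fall was not tested. Among the 8 genes, the smallest adjusted p were those of CHAC1, DDIT4, VLDLR and TRIB3 (edgeR, 0.0249, 0.0287, 0.0293 and 0.0377), with log2 fold changes of -3.77, -3.19, -2.79 and -1.81. The median log2 ratio was -0.26 within replicate 1 and -1.57 within replicates 2 and 3. Without sgNT replicate 1, 12 of the 14 were lower, as were 856 of all 13841 genes. Without any other single library none was called, and 13 to 145 of all genes were lower. The 8 calls were 2 with limma and 11 with DESeq2, where 209 and 421 of all genes were lower. DDIT4 and TRIB3 were among those not called with limma (adjusted p = 0.0591 and 0.0577).

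**Figure D4:**
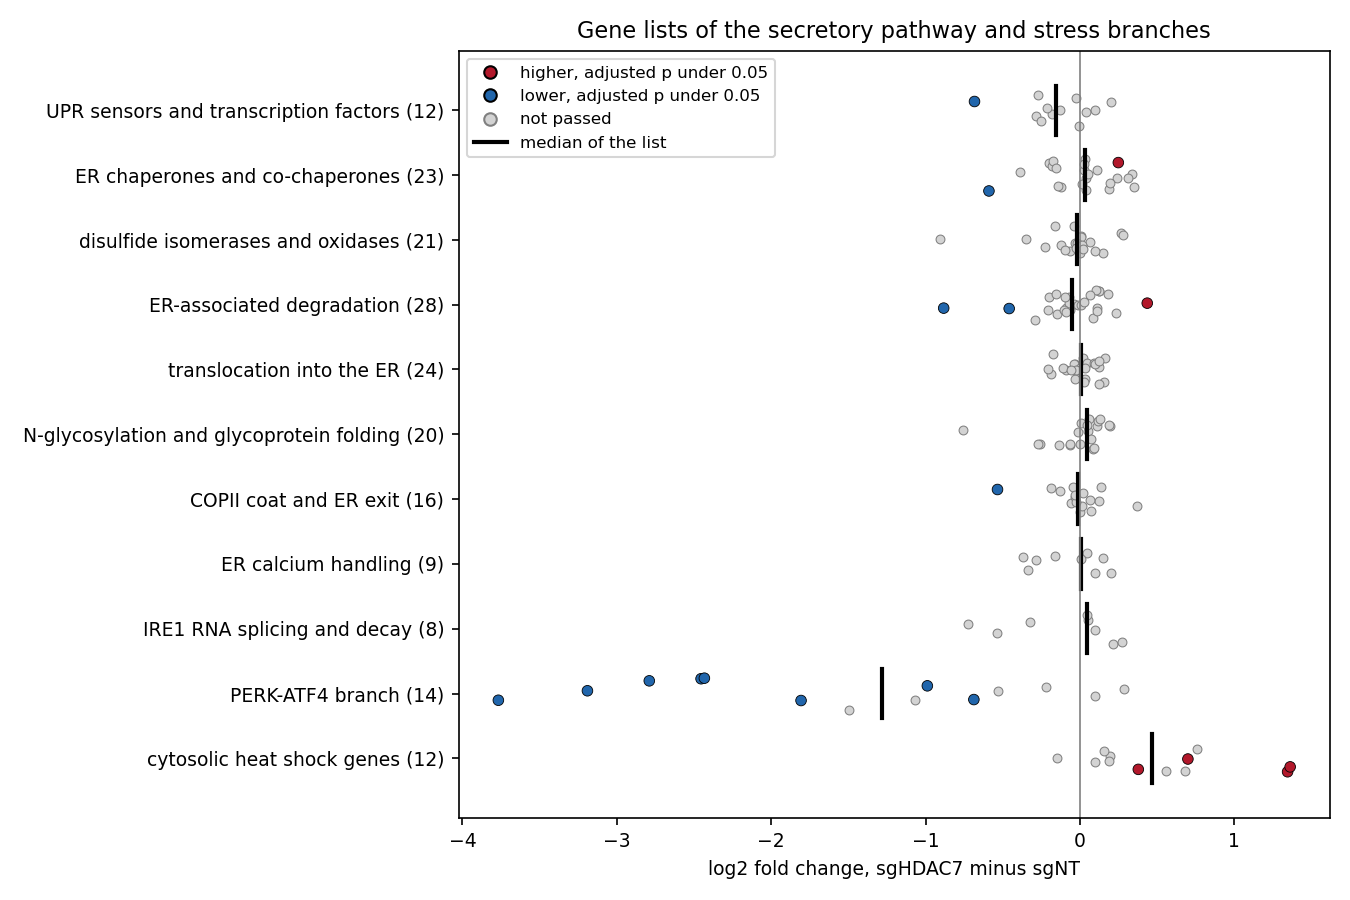
Log2 fold change (horizontal axis, sgHDAC7 minus sgNT) of each tested gene, by list (rows, with the number tested in brackets), with the 10 genes above included in their lists. Coloured points passed the edgeR test, and the bar marks the median. It lies between -0.15 and 0.05 for the first 9 lists, at -1.28 for the PERK-ATF4 branch and at 0.47 for cytosolic heat shock genes. The row with that last label also holds the mitochondrial chaperonins HSPD1 and HSPE1.

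By likeness of pattern over the 6 libraries, the genes nearest to XBP1 among 7945 with a mean of at least 20 CPM were LEPROTL1, CERT1 and ZNF788P (Pearson r 0.995, 0.995 and 0.993), and those nearest to HSPA5 were ATAD3B, HSP90AB3P and CDK13 (r 0.993, 0.992 and 0.991). HSP90AB3P is a pseudogene of an HSP90 gene, so its reads are uncertain. These are descriptions over 6 libraries that share the split by guide and by replicate 1.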

How the data were processed

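The authors deposited 1 table of counts. Its name says CPM, but 100% of its values are whole numbers and its column totals differ, so they were treated as raw counts. The submitters' processing notes name hg38 and edgeR 3.32.1 but assign them no role. Aligner, counter, annotation and strandedness: not given in the sources used here. The columns named NC were taken as sgNT, the only other group. The table has 0 further value columns. Every gene in it exceeds 0.5 CPM in at least 2 libraries.

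Genes averaging at least 1 CPM were tested with the quasi-likelihood method of edgeR (version 4.0.16 in R 4.3.3; TMM, group alone, two-sided, Benjamini-Hochberg over all 13841 genes, threshold 0.05). Log2 ratios between libraries used a pseudocount of 0.5 CPM, and standard errors were obtained by dividing the fold change (log2) by the root of F. At this depth 3 counts equal 0.24 to 0.299 CPM, counting error only. Alternatives used DESeq2 1.42.0, limma 3.58.1, other scalings and filters, a replicate 1 term, a replicate block and leaving out libraries. Scripts were tested on simulated data.

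The 10 genes and all lists were chosen with earlier results of these data known. Named are the 10, HDAC7, up to 4 called genes per list (otherwise the 2 with the smallest adjusted p) and the 3 most similar genes to XBP1 and to HSPA5. Positions and exon lengths come from GENCODE 29 (GRCh38).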

Additional observations from a re-analysis of the deposited data

How the results depend on the processing

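Over all genes, the 396 calls became 711 with DESeq2, 1743 with the replicate 1 term, 2847 on replicates 2 and 3 alone, and 27 to 1588 when 1 library was left out. The 3 called members became 6 on replicates 2 and 3, and 1 to 5 when 1 library was left out (5 without sgNT replicate 1, and XBP1 alone without any other). PDIA4 turned sign with RLE scaling (-0.00077), library totals (-0.017), DESeq2 (-0.00072) and a minimum of 5 CPM (-0.0022), and with single libraries left out it ran from -0.046 to 0.058; HSP90B1 then ran from -0.0018 to 0.095 and HYOU1 from -0.026 to 0.080. The cause was not tested. Of 160 member values under alternatives, 130 kept direction and call, 13 lost and 7 gained a call, and 10 turned sign. The replicate block gave 998 calls over all genes and the same 3 members; libraries that share a number share no more than that by the labels, and their deviations correlated at 0.30, 0.11 and 0.097 for numbers 1, 2 and 3. Libraries numbered 1 correlated best with each other, while those numbered 2 correlated best with those numbered 3.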

Other observations

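Genes tied to IRE1's other known activity, the decay of selected messenger RNAs, and the ligase that rejoins XBP1 held no edgeR call among 8 tested (median log2 fold change 0.05; 2 lower with the replicate 1 term, 1 lower with DESeq2, and 2 with an unadjusted edgeR p under 0.05). TNFRSF10B, a death receptor, had 18.5 ± 1.08 CPM with sgHDAC7 and 30.5 ± 8.46 CPM with sgNT (edgeR adjusted p = 0.0767), with a log2 ratio of -0.10 within replicate 1 and -0.95 within replicates 2 and 3. HGSNAT, a lysosomal enzyme, had 36.1 ± 4.29 and 29.9 ± 1.85 CPM (0.222). Of 9 genes of ER calcium handling none passed (median 0.01; 1 higher and 2 lower with the replicate 1 term, 1 lower with DESeq2, and 2 with an unadjusted edgeR p under 0.05). Over all genes tested, 5.78% were higher and 6.81% lower with the replicate 1 term, and 421 of 13841 were lower with DESeq2. ITPR1, a calcium release channel, had 82.7 ± 7.89 and 105 ± 5.41 CPM (edgeR adjusted p = 0.0657), and STIM1, the calcium sensor of the ER membrane, had 127 ± 0.54 and 110.5 ± 8.85 CPM (0.171).

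Heat shock genes that serve folding outside the ER were higher in 4 of 12 cases and lower in none (edgeR, and 7 and 0 with the replicate 1 term). The list holds HSPD1 and HSPE1, chaperonins of mitochondria, beside cytosolic genes. Over all genes tested, 1.16% were higher with group alone and 5.78% with that term. The median was 0.47, against 0.03 for the 23 ER chaperones and co-chaperones, a difference that was not tested. HSPB1 had 102 ± 10.7 CPM with sgHDAC7 and 63.0 ± 2.58 CPM with sgNT (log2 0.70 ± 0.09, edgeR adjusted p = 0.0064). HSPA1A and HSPA1B, near-identical copies between which reads may have been split, had log2 fold changes of 1.35 ± 0.25 and 1.36 ± 0.27 (edgeR adjusted p = 0.028 and 0.0319). HSP90AA1 had 0.38 ± 0.09, with a call near the threshold (edgeR adjusted p = 0.04997). That call was lost with upper quartile scaling (edgeR adjusted p = 0.0522), with library totals (0.055) and with limma (0.0667). The 4 calls of the list were 3 with either of these scalings and 4 with limma. The median log2 ratio of the 12 genes was 0.10 within replicate 1 and 0.62 within replicates 2 and 3. The 4 calls became 6 without sgHDAC7 replicate 1, 9 without sgNT replicate 1, 1 without sgNT replicate 2 or 3, and 0 without sgHDAC7 replicate 2 or 3. Of all 13841 genes, 83 were higher without sgHDAC7 replicate 1 and 732 without sgNT replicate 1. Without any other single library 13 to 26 were higher.

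Among markers of other cell types, ITGAM, an integrin of monocytes and granulocytes, was lower in sgHDAC7 (25.02 ± 4.25 against 48.0 ± 11.8 CPM, log2 -0.94 ± 0.18, edgeR adjusted p = 0.0305). Of 4 mast cell and basophil markers none passed with group alone. KIT, a receptor of mast cells and progenitors, lay lower in every sgHDAC7 library (1.98 ± 0.25 against 3.81 ± 1.04 CPM, edgeR adjusted p = 0.113). Its values rest on 21 to 54 counts per library. CPA3, a mast cell protease, had a log2 fold change of 0.40. Of the 4, CPA3 alone was called with the replicate 1 term, as higher (edgeR adjusted p = 0.00316). All 10 erythroid markers had a positive log2 fold change (0.03 to 0.61), none passing with group alone, and 6 were higher with the replicate 1 term, among them HBG2, a fetal globin (edgeR adjusted p = 0.000993). TFRC, the transferrin receptor, lay higher in every sgHDAC7 library (2834 ± 132 against 2459 ± 206 CPM, edgeR adjusted p = 0.178). Over all genes tested, 13.0% lay higher and 12.2% lower without overlap of the groups, and 5.78% were higher with the replicate 1 term. The 3 plasma cell and B cell markers in the table summed to 16.1 to 22.95 CPM and 20.3 to 22.1 CPM, and the part of any marker in the results was not tested.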
